A study of Mus musculus with 8 samples.

Results

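Nrg1, Nrg4, Hbegf, Areg, Ereg, Tgfa, Egfr, Erbb2 and Erbb3 are 9 of the 54532 genes counted in macrophages of WT and Gsdmd-/- mice. They encode growth factors of the neuregulin and EGF families and the ErbB receptors that bind them. The 9 genes were chosen by name around Nrg1, which was already known to be lower in the Gsdmd-/- libraries of these same data. The difference between genotypes in the members is therefore described with its size and error, and no p-value is given for it. Counts of members past a threshold appear only beside the share of all genes past it.

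BMDMs, or bone marrow-derived macrophages, are cells differentiated from marrow in a dish with macrophage colony-stimulating factor (M-CSF). RNA was sequenced from 4 WT and 4 Gsdmd-/- libraries of BMDMs that had been kept for 6 days in 20 ng/ml M-CSF and then received no treatment. The WT mice were purchased C57BL/6J females of 6 to 8 weeks. The Gsdmd-/- mice lack gasdermin D, the pore-forming protein of pyroptosis, in all tissues, came from another laboratory and were kept in a university animal facility. The age, sex and strain background of the Gsdmd-/- mice are not given separately. Origin and housing, and any difference in strain background, cannot be told apart from genotype. It is not stated if the libraries of a genotype are from different mice, and the p-values for other genes below then measure only the spread between these libraries, which may be technical.

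Total counts were 14935114 to 16794810 per library. CPM below are counts scaled to a common library size across the 8 libraries. For a gene with no read, up to 3 counts remain possible, or 0.177 to 0.199 CPM, a limit that covers counting error only. Gsdmd itself had a mean of 75.3 ± 14.1 CPM (SD, n = 4) in the WT libraries against 16.2 ± 1.56 CPM (n = 4) in those of Gsdmd-/-, and its log2 fold change was -2.22 (SE 0.139, adjusted p = 4.67e-05 with edgeR). Thus 21.5% of the WT level was still counted on the deleted gene. WT libraries 2 and 3 stood apart from the other 6 on the first principal component (43.6% of the variance), at 45.4 and 38.8 against -25.9 to -7.19. The log2 fold changes of Nrg1, Erbb3, Egfr, Rhbdf1 and Eps8, the difference in Erbb2 and the correlations of the receptors are also given without them. The macrophage markers were all detected, 11 of 11, with a summed level of 15507 and 17418 CPM in WT libraries 2 and 3 and 19637 to 23948 CPM in the other 6. Most of this sum was Lyz2, lysozyme, at 12999 to 20757 CPM. Of the 11 markers, 6 were lower in WT libraries 2 and 3 than in all others and 2 were higher, Mertk at 250 and 212 CPM against 101 to 142 and Adgre1 at 319 and 326 CPM against 242 to 291.

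Ligands of the EGF family are made as precursors anchored in the cell membrane, and proteases of the ADAM family cut them free. Hbegf, Areg, Ereg and Tgfa encode ligands of the EGF receptor, while neuregulins bind Erbb3 and Erbb4. Ligand binding joins the receptors in pairs, in which Erbb2, which has no known ligand of its own, is the common partner and Erbb3, which has little kinase activity, relies on the receptor it is paired with. In tissues, macrophages are known as a source of such ligands for nearby epithelial and muscle cells.

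The sequences before the start sites of Egfr, Erbb2 and Areg are shown because the first pair of genes was highest in the same 2 libraries and the last was close to silent. RefSeq promoters (GRCm38.p6) were found for 5 of the 9 genes, also for Nrg4 and Tgfa, and none for Nrg1, Hbegf, Ereg and Erbb3. Each run holds the 250 bases before the annotated start, 5′ to 3′ on the strand of the gene. Capitals mark matches on either strand to the TATA box, spelled TATAAA, to the GC box, spelled GGGCGG, and to the cyclic AMP response element (CRE), spelled TGACGTCA. The windows lie at chr11:16751953-16752202 for Egfr, chr11:98412234-98412483 for Erbb2 and chr5:91139349-91139598 for Areg, all on the plus strand.
Egfr: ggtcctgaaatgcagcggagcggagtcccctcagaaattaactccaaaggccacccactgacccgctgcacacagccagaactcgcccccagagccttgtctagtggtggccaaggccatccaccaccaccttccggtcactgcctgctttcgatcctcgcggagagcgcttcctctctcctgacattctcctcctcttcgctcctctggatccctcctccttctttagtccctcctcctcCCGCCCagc
Erbb2: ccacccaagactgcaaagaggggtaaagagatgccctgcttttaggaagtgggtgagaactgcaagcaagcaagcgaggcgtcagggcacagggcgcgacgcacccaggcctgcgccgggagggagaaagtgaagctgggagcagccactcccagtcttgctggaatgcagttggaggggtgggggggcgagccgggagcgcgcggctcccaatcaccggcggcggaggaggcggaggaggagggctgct
Areg: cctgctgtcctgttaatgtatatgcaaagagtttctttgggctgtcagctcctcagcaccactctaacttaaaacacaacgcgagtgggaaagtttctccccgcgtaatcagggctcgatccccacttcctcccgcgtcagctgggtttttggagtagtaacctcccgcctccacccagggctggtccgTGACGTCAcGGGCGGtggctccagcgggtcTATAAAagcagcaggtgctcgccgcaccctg
The window of Areg held 1 match to each of the 3 motifs, none overlapping another, at 31 (TATA box), 52 (GC box) and 61 bases (CRE) before the start. The Egfr window held 1 GC box, 9 bases before the start, and the Erbb2 window held no match. Of 32851 mouse promoter windows of this length, 12.4% held the TATA box, 32.7% the GC box and 1.55% the CRE. The windows of Egfr and Erbb2 had a GC content of 60.8% and 66.0%, with 11 and 16 CpG, against medians of 52.4% and 6 over all windows. Tgfa had 2 GC boxes, 15 and 126 bases before its start, and Nrg4 no match. A match is a description of letters and not a site of binding.

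Nrg1 encodes neuregulin 1, a ligand of Erbb3 and Erbb4 with many isoforms. It lies at chr8:31814551-32884029 on the minus strand (GRCm38, ENSMUSG00000062991), where GENCODE lists 18 transcripts, and the counts are sums over the gene that do not tell isoforms apart. In WT, 229, 272, 311 and 329 reads were counted in libraries 1 to 4, or 13.9, 16.6, 19.0 and 20.02 CPM. In Gsdmd-/-, 125, 126, 122 and 119 reads were counted, or 7.40, 7.45, 7.74 and 7.89 CPM. The lowest WT library was above the highest Gsdmd-/- library, so the groups did not overlap. The mean was 17.4 ± 2.71 CPM (SD, n = 4) for WT against 7.62 ± 0.234 CPM (n = 4) for Gsdmd-/-, which is 43.8% of the WT level. The log2 fold change was -1.19 (SE 0.132). In these bulk libraries, fewer cells that express a gene and less of its RNA per cell cannot be told apart.

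The spread of Nrg1 was unequal between the genotypes. The coefficient of variation was 15.6% in WT, where counting error alone gives 5.92%, and 3.06% in Gsdmd-/-, below the 9.02% of counting error. Both WT libraries that stood apart were between WT 1 and WT 4 in Nrg1, and without them the log2 fold change was -1.16. The summed dendritic cell markers, of which the integrin Itgax was the most abundant (1653 to 2346 CPM), were also without overlap, at 2246 to 2390 CPM in WT and 1688 to 2108 CPM in Gsdmd-/-. Of these 10 markers, 4 were below 1 CPM in every library, among them Siglech at 0, and Ccr7 was at 0 to 1.22 CPM, while Zbtb46, Batf3, Clec9a and Cd209a overlapped between the genotypes, so the separation of the sum was that of Itgax. Their part in the Nrg1 result was not tested.

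**Figure D1:**
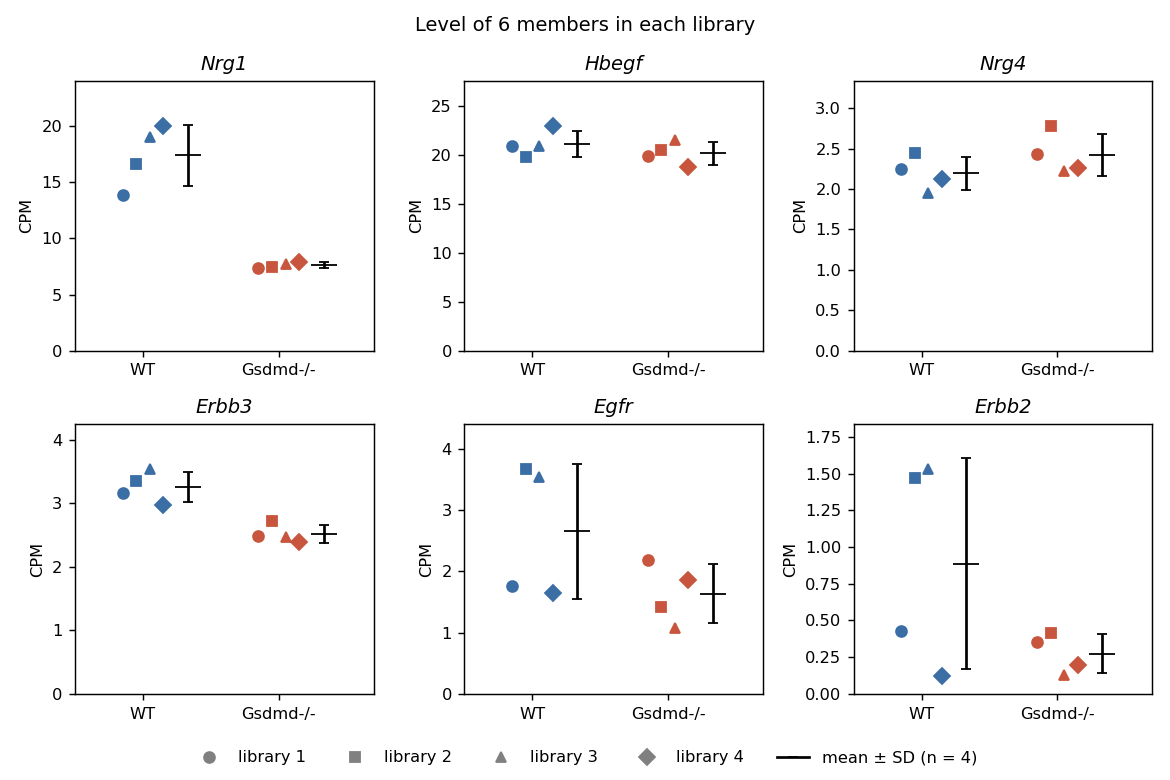
CPM of 6 members in each WT (blue) and Gsdmd-/- (red) library, 1 marker shape per library number, with the mean ± SD (n = 4) in black beside them; every axis starts at 0. Nrg1 falls into 2 separate groups, Hbegf and Nrg4 overlap between the genotypes, and Egfr and Erbb2 are highest in WT libraries 2 and 3.

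Hbegf encodes heparin-binding EGF-like growth factor, a ligand of the EGF receptor, and was the member with the most reads (chr18:36504927-36515805, minus strand). It had 20.9, 19.8, 20.9 and 23.0 CPM in WT and 19.9, 20.5, 21.6 and 18.8 CPM in Gsdmd-/-. The genotypes overlapped, with the highest library in WT and the lowest in Gsdmd-/-. The means were 21.2 ± 1.34 and 20.2 ± 1.17 CPM (SD, n = 4 each) and the log2 fold change was -0.07 (SE 0.0930).

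Nrg4 encodes neuregulin 4, a ligand of Erbb4 (chr9:55220222-55326844, minus strand). It was counted 32 to 40 times in WT libraries and 34 to 47 times in Gsdmd-/- libraries, that is at 2.25, 2.44, 1.95 and 2.13 CPM against 2.43, 2.78, 2.22 and 2.26 CPM. The groups overlapped, and the highest value was in Gsdmd-/- library 2. The log2 fold change was 0.14 (SE 0.191). Its exons share 368 bases with Fbxo22 on the opposite strand, which had 603 to 700 counts per library, and whether counting used the strand is not stated, so a part of the Nrg4 reads may belong to Fbxo22.

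The ratio of Nrg1 to Hbegf within a library does not depend on scaling between libraries. It was 0.666 to 0.907 in WT (0.821 ± 0.107) and 0.359 to 0.420 in Gsdmd-/- (0.379 ± 0.0285). The ratio of Nrg1 to Nrg4 was 6.19 to 9.72 in WT and 2.68 to 3.50 in Gsdmd-/-. Relative to Hbegf and to Nrg4, Nrg1 was lower in every Gsdmd-/- library than in any WT library. As Nrg1 was chosen for its lower level, this restates the difference described above and is no separate evidence for it. The second ratio rests on 32 to 47 reads of Nrg4 per library, a part of which may belong to Fbxo22.

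The remaining ligands were close to or at 0. Areg encodes amphiregulin, a ligand of the EGF receptor made by several immune cells in tissue repair (chr5:91139599-91148432), and had 2, 3, 1 and 0 reads in WT and 3, 0, 0 and 0 in Gsdmd-/-. Tgfa encodes transforming growth factor alpha (chr6:86195223-86275719) and had 1 read in WT library 2 and 1 in Gsdmd-/- library 3. Ereg encodes epiregulin (chr5:91074622-91093646) and had no read in any library. No library was above 3 reads for any of these 3 genes, so no fold change is given and a difference was not detectable at this depth. Areg and Ereg lie in a row of EGF ligand genes of 375.5 kb on chromosome 5 with Epgn, which had no read, and Btc, betacellulin, which had 74 reads in all and 0.122 to 0.978 CPM.

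Among the 3 receptors, Erbb3 had the highest mean CPM in each genotype and the smallest coefficient of variation (7.43% in WT and 5.65% in Gsdmd-/-; chr10:128567523-128589652, minus strand). It had 3.16, 3.36, 3.54 and 2.98 CPM in WT and 2.49, 2.72, 2.47 and 2.39 CPM in Gsdmd-/-. The groups did not overlap, and the gap between WT library 4 and Gsdmd-/- library 2 was narrow. The means were 3.26 ± 0.242 and 2.52 ± 0.142 CPM (SD, n = 4 each), 77.2% of the WT level and a log2 fold change of -0.37 (SE 0.167). These values rest on 49 to 58 reads per WT library and 36 to 46 per Gsdmd-/- library. Counting error alone gives a coefficient of variation of 13.7% in WT and 15.7% in Gsdmd-/-, above the observed values. The small spread and the narrow gap can therefore not be read as a steady level of Erbb3. Without WT libraries 2 and 3 the log2 fold change was -0.29. The summed dendritic cell markers described beside Nrg1, mostly Itgax, were separated between the genotypes in the same direction, and their part in this result was not tested.

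Egfr encodes the EGF receptor (chr11:16752203-16918158, plus strand), whose promoter is printed above. It had 1.76, 3.67, 3.54 and 1.64 CPM in WT and 2.19, 1.42, 1.08 and 1.86 CPM in Gsdmd-/-. WT libraries 2 and 3 were above all others, and WT libraries 1 and 4 lay within the range of Gsdmd-/-. The means were 2.65 ± 1.10 and 1.64 ± 0.488 CPM (SD, n = 4 each), with a coefficient of variation of 41.4% in WT against 15.2% from counting. The log2 fold change of -0.69 (SE 0.343) was -0.06 (SE 0.331) without WT libraries 2 and 3.

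Erbb2 (chr11:98412470-98437716, plus strand) had the same pattern at a lower level. It was counted 7, 24, 25 and 2 times in WT and 6, 7, 2 and 3 times in Gsdmd-/-. WT libraries 2 and 3 had a mean of 1.497 CPM, and the other 6 libraries had 0.122 to 0.426 CPM. The mean was 0.885 ± 0.717 CPM in WT and 0.274 ± 0.134 CPM in Gsdmd-/- (SD, n = 4 each), a difference of -0.61 CPM that was -4.37e-05 CPM without these libraries. Its last 9 exon bases overlap Mien1 on the opposite strand.

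Other transcripts also set WT libraries 2 and 3 apart. The summed endothelial markers were at 236 and 275 CPM in them and at 135 to 213 CPM in the other 6 libraries, with Vwf, von Willebrand factor, the most abundant (81.2 to 238 CPM) and Tek and Cldn5 at 0. Within this list 4 markers, Vwf among them, were higher in these libraries than in all others and 1 was lower, the VEGF receptor Kdr at 23.6 and 21.1 CPM against 44.1 to 77.8 CPM. The mast cell and basophil markers were at 16.5 and 17.2 CPM against 54.6 to 81.9 CPM, with Kit the most abundant (10.3 to 71.0 CPM) and Mcpt4 at 0. The epithelial markers were at 8.49 and 10.7 CPM against 11.3 to 24.0 CPM, with Cdh1 the most abundant (8.24 to 23.9 CPM) and Krt5, Krt14 and Elf3 at 0. Of the 10 markers in each list, 5, 6 and 9 were below 1 CPM in every library. Their part in the levels of Egfr and Erbb2 was not tested. Beside these lists and the macrophage list given above, the sums of the remaining lists did not separate these libraries from the other 6. Neutrophil markers summed to 551 to 948 CPM (Mmp8 the most abundant at 545 to 940 CPM, Ly6g and Retnlg at 0), lymphoid markers to 615 to 779 CPM (Il7r at 614 to 778 CPM, Cd3d and Ncr1 at 0) and stromal markers to 5.09 to 11.2 CPM (Thy1 at 2.48 to 7.80 CPM, Lum at 0).

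Of the 9 members, 5 passed the filter on low counts (Nrg1, Nrg4, Hbegf, Egfr and Erbb3) and 4 did not (Areg, Ereg, Tgfa and Erbb2). Nrg1 was the 1 member below the adjusted p threshold of 0.05, which 0.349% of all 12911 tested genes passed, 0.209% with a lower level. It was also the 1 member at the cutoff of an unadjusted p under 0.05 together with a log2 fold change of 0.5 or more in size, which 4.83% of the tested genes reached, 3.28% with a lower level. The groups did not overlap, with Gsdmd-/- lower, for 2 members (Nrg1 and Erbb3) and for 4.12% of the tested genes, and no member was higher without overlap (3.48%). As the members were chosen in this contrast, nothing is read from these counts.

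Per length, the levels of the members over all 8 libraries were highest for Hbegf, at 4.28 CPM per kb of exon, followed by Nrg1 at 1.21, Erbb3 at 0.480, Nrg4 at 0.380 and Egfr at 0.189 CPM per kb. Erbb2 was at 0.111, Areg at 0.0559, Tgfa at 0.0024 and Ereg at 0 CPM per kb. Of the 8 neighbouring pairs in this order, only Hbegf with Nrg1 and Nrg1 with Erbb3 had no libraries in common range, and the other 6 overlapped. In WT 5 pairs overlapped and in Gsdmd-/- 4. When the longest transcript was used as length, Nrg4 rose above Erbb3 and 4 pairs overlapped. Nrg1 was at 1.68 ± 0.262 CPM per kb in WT and 0.736 ± 0.0226 in Gsdmd-/-, and stood second in both.

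**Figure D2:**
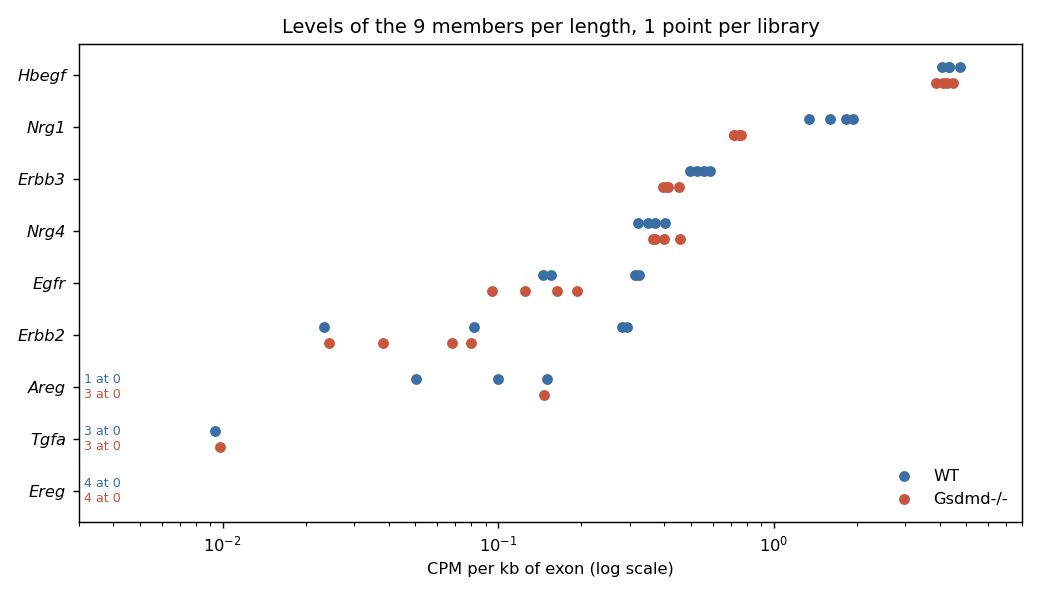
Level of the 9 members in CPM per kb of exon on a log axis, 1 point per library, WT in blue and Gsdmd-/- in red; libraries with no read are given as counts at the left. Hbegf and Nrg1 are above the others in every library, and Ereg has no read in any of the 8 libraries.

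Summed over the 9 members, WT libraries had 42.6 to 50.6 CPM and Gsdmd-/- libraries 33.4 to 35.3 CPM. The means were 47.7 and 34.7 CPM, of which Nrg1 made up 17.4 and 7.62 CPM. As the members were chosen around the lower Nrg1, the separation of the sum is not a result about the other members. Nrg1 and Hbegf together made up 80.9% of this sum in WT and 80.1% in Gsdmd-/-. The receptors alone summed to 4.75 to 8.61 CPM in WT and 3.68 to 5.04 CPM in Gsdmd-/-, which overlapped.

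The correlations between members differed from pair to pair. Across the 8 libraries, which share the genotype difference, the log2 CPM of Nrg1 and Erbb3 had a Pearson r of 0.88, but after the genotype means were subtracted r was -0.08. Egfr and Erbb2 had r = 0.88 across libraries and 0.83 within genotypes, and Erbb2 and Erbb3 had 0.76 and 0.87. Hbegf and Egfr ran in opposite directions within genotypes (r = -0.76). Without WT libraries 2 and 3, an alternative chosen after seeing the data, r was 0.43 across libraries and 0.44 within genotypes for Egfr and Erbb2, and 0.26 and 0.73 for Erbb2 and Erbb3. Within genotypes it was then -0.71 for Hbegf and Egfr and -0.52 for Nrg1 and Erbb3, which had 0.82 across libraries. These values describe 8 or 6 libraries that share the scaling, and carry no test. The coefficient of variation of Hbegf was 6.31% in WT and 5.78% in Gsdmd-/-, close to the 5.37% and 5.53% of counting error. That of Erbb3 was 7.43% and 5.65%, below the 13.7% and 15.7% of counting error, and Erbb2 had 2 to 25 reads per library. The r values within genotypes may thus be in part counting noise.

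The pattern of Nrg1 was compared with that of 12036 genes at a mean of at least 1 CPM. Across the 8 libraries, the 5 most alike by Pearson r of log2 CPM were Eef2 (0.98), Trp53rka (0.97), Gsdmd (0.97), Zfp746 (0.97) and Gm10134 (0.97), and 24 genes had r above 0.95. All 5 were lower in Gsdmd-/- without overlap, beside 4.12% of all tested genes. Eef2, a translation elongation factor, had a mean of 1995 CPM in WT and 1665 CPM in Gsdmd-/-. As Nrg1 was chosen for its lower level in Gsdmd-/-, this ranking favors genes that split in the same way, and nothing is read from it. Apart from Gsdmd, their adjusted p was 0.134 to 0.295 (edgeR). Within genotypes the 5 most alike were 2410006H16Rik (0.99), Cyp27a1 (0.97), Agpat4 (0.96), Gpr15 (0.96) and Cars (0.95), and all of them overlapped between the genotypes. None of either 5 was among the 5 most alike by Spearman's rho, so the names depend on the measure.

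Around Nrg1 on chromosome 8, the nearest tested genes were Fut10, a fucosyltransferase gene 552.8 kb away, and the pseudogene Gm6877, 307.2 kb away on the other side. The log2 fold change was 0.12 for Fut10 (adjusted p = 0.909) and -0.05 for Gm6877 (adjusted p = 0.964). Of 69 genes listed within 2 Mb, 17 were tested. Of these, 8 were below 0 and 9 above, with a median log2 fold change of 0.01. Rbpms, an RNA-binding protein gene 0.899 Mb away and chosen after its values were seen, was the 1 gene among them with an adjusted p under 0.05. It was higher in Gsdmd-/-, at 4.52 to 7.79 CPM in WT and 12.4 to 17.03 CPM in Gsdmd-/-, with a log2 fold change of 1.11 (SE 0.178, adjusted p = 0.0356, edgeR). Over 17 settings its adjusted p ranged from 7.15e-06 to 0.152 and was under 0.05 in 10, and without WT libraries 2 and 3 its log2 fold change was 0.93. Purg, 0.502 Mb away and also chosen after its values were seen, was the other neighbour at the cutoff on the unadjusted p and had a log2 fold change of -0.54 (SE 0.223, adjusted p = 0.378), with overlap between the genotypes. The genes Gm26578 and Gm22140, which overlap Nrg1 on the opposite strand, had no read.

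**Figure D3:**
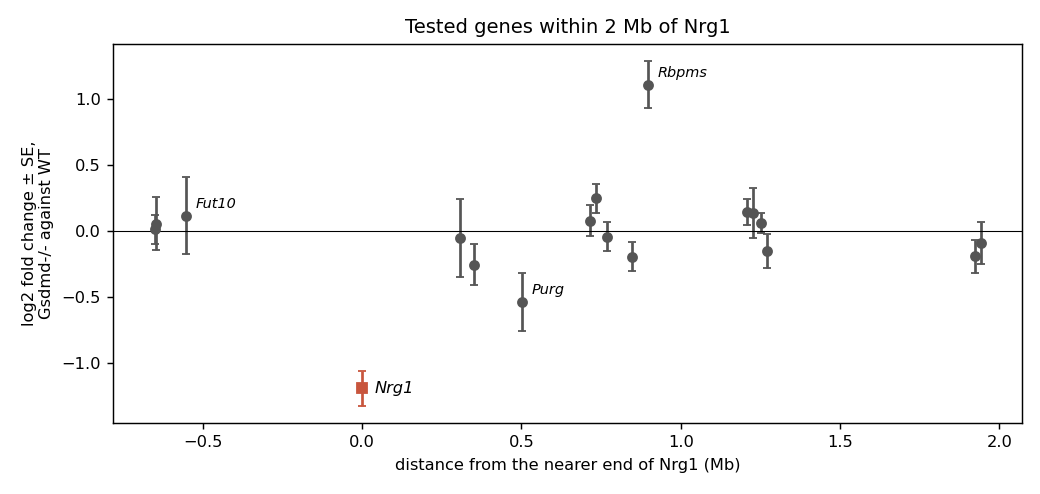
Log2 fold change ± SE, Gsdmd-/- against WT, of the 17 tested genes within 2 Mb of Nrg1 by distance from the nearer end of Nrg1 in Mb, with Nrg1 in red at 0. Nrg1 is at -1.19, Rbpms is above 1, and the other genes scatter around 0.

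The other genes of the pathway were taken from 4 lists with 84 genes, of which 72 were tested. None passed the adjusted p threshold of 0.05 with edgeR, where 0.349% of all tested genes did. An unadjusted p under 0.05 was reached by 10 of the 72 (13.9%), beside 12.0% of all tested genes. Of the 10, 1 was higher and 9 lower, beside 612 higher and 943 lower of all 12911 tested genes. The count of 10 became 6 without WT library 2 or without Gsdmd-/- library 1, 2 or 3, and 17 without WT library 4. At the adjusted p threshold, DESeq2 called 1 of the 72 (Spred1) and limma voom 0. The median log2 fold change over the 72 genes was -0.09, with 49 (68.1%) below 0, beside -0.0068 and 51.5% over all tested genes. Gsdmd-/- was lower without overlap in 5 of the 72 (6.94%; Shc1, Pik3r2, Akt2, Ptpn11 and Spred1) and higher in 0, beside 4.12% and 3.48% of all tested genes.

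Of 6 other genes of the families, 5 ligands and the receptor Erbb4, 1 was tested. Egf, epidermal growth factor, was at 0.507 to 1.54 CPM with a log2 fold change of -0.08 (adjusted p = 0.955). Epgn and Nrg3 had no read, Nrg2 8 reads in all and Btc the 74 given above. Erbb4, the receptor of Nrg4 and the other neuregulin receptor beside Erbb3, had 1 read in all, in Gsdmd-/- library 3.

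Of 13 genes of ligand shedding, 10 were tested and their median log2 fold change was -0.05. Adam10 and Adam17, the main proteases that release the ligands, were at 162 to 258 and 148 to 190 CPM and had log2 fold changes of -0.09 (SE 0.139, adjusted p = 0.846) and 0.01 (SE 0.0894, adjusted p = 0.969). Rhbdf2, an inactive rhomboid protein that Adam17 needs to mature, was at -0.02 (SE 0.102, adjusted p = 0.957). Its relative Rhbdf1 reached the cutoff on the unadjusted p, at -0.93 (SE 0.366, adjusted p = 0.356). Rhbdf1 had 1.95, 6.54, 5.86 and 2.62 CPM in WT and 2.43, 2.13, 2.35 and 1.99 CPM in Gsdmd-/-. As for Egfr and Erbb2, WT libraries 2 and 3 were above all others, and without them the log2 fold change was -0.04 (adjusted p = 0.974).

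Of 37 genes of receptor adaptors and kinases, 36 were tested, and their median log2 fold change was -0.08. The following were chosen after their values were seen. Shc1, an adaptor that binds activated receptors, had 126 ± 2.83 CPM in WT and 109 ± 3.76 CPM in Gsdmd-/- without overlap, a log2 fold change of -0.21 (SE 0.0687, adjusted p = 0.274). Ptpn11, the phosphatase SHP2, had 143 ± 4.94 and 123 ± 5.26 CPM, also without overlap, at -0.22 (SE 0.0719, adjusted p = 0.269). Eps8, a substrate of the EGF receptor, was the 1 gene of the pathway above 0 with an unadjusted p under 0.05. Its log2 fold change was 0.46 (SE 0.171, adjusted p = 0.326), with 207 and 193 CPM in WT libraries 2 and 3 and 297 to 380 CPM in the other 6. Without WT libraries 2 and 3 it was 0.16 (SE 0.101, unadjusted p = 0.152, adjusted p = 0.591).

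Of 28 genes that restrain the receptors or turn them over, 25 were tested, with a median log2 fold change of -0.14. Spred1, an inhibitor of Ras and MAP kinase signaling, had 140, 117, 118 and 143 CPM in WT and 76.9, 91.2, 98.4 and 96.3 CPM in Gsdmd-/-. The groups did not overlap, and WT libraries 2 and 3 were the nearest to Gsdmd-/-. The log2 fold change was -0.51 (SE 0.107, adjusted p = 0.0944), and the adjusted p ranged from 0.00196 to 0.335 over 17 settings and was under 0.05 in 2, DESeq2 and the fit without WT libraries 2 and 3 (0.0278). Errfi1, a feedback inhibitor of ErbB kinases, was at -0.16 (SE 0.135, adjusted p = 0.688). Cbl, the ubiquitin ligase that sends the EGF receptor to degradation, was at 0.05 (SE 0.200, adjusted p = 0.945).

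**Figure D4:**
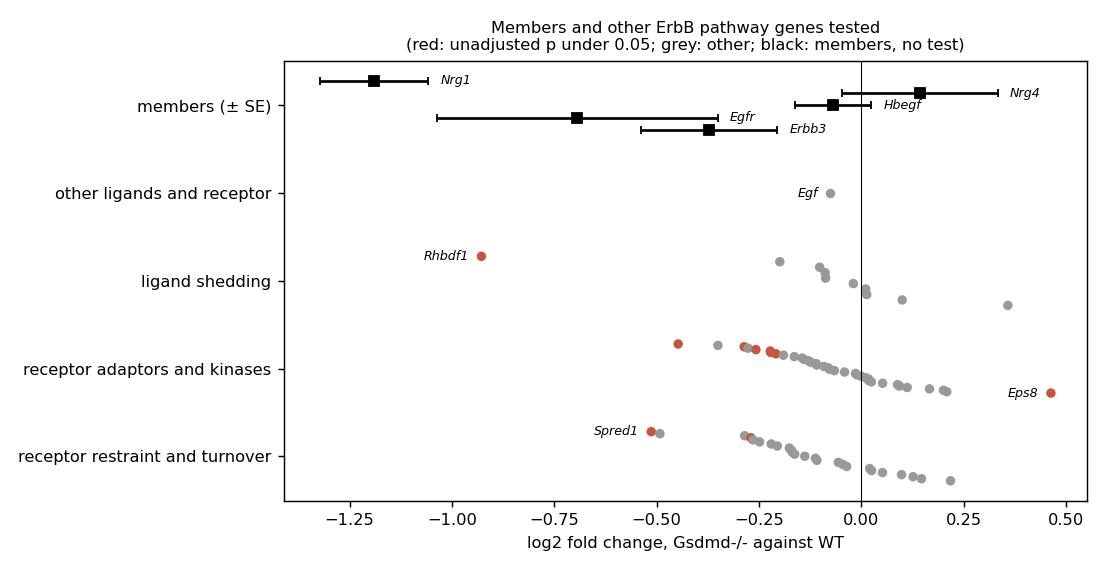
Log2 fold change, Gsdmd-/- against WT, of the 5 members that passed the filter (black squares, ± SE, no test) and of the 72 tested genes of the 4 pathway lists, 1 point each, red with an unadjusted p under 0.05. Nrg1 is the lowest at -1.19, Rhbdf1 is the lowest of the lists at -0.93, and most points of each list lie close to 0.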

How the data were processed

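RNA was extracted from untreated BMDMs and libraries were made with a TruSeq RNA kit. The authors deposited read counts per gene for 4 WT and 4 Gsdmd-/- libraries, not normalized, and all values were checked to be whole numbers. The labels name the build mm10. The aligner, the counting tool and the use of strand are not given in the sources used here. Of 54532 genes, 54495 were matched by identifier to GENCODE M21 (GRCm38), which gave positions and exon lengths. No library pair agreed within sampling noise (lowest chi-square per degree of freedom 5.46).

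TMM scaling and the filterByExpr filter of edgeR 4.0.16 under R 4.3.3 were applied, after which 12911 genes remained (median log2 fold change -0.0068). The genotypes were compared by the two-sided quasi-likelihood test with genotype as the only term, and p-values were adjusted by Benjamini-Hochberg over all these genes. CPM are counts over the TMM-scaled library size, and log2 CPM used a prior count of 2. The study names edgeR for its cutoff (unadjusted p and log2 fold change), which is used here too, and limma in its methods. Limma voom (3.58.1) was an alternative. Correlations between members used log2(CPM + 0.1).

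The members, the gene lists (4 pathway lists and 8 lists of cell type markers) and the naming rule were chosen with earlier results of these data known, and no p is given for a member. The rule names the 9 members, Gsdmd, pathway genes with an adjusted p under 0.05 or, if these are fewer than 10, those at the cutoff on the unadjusted p, the other ligands and receptor, Adam10, Adam17, Rhbdf1, Rhbdf2, Errfi1, Cbl, the nearest tested genes beside Nrg1, the 5 genes most like Nrg1 by each measure and markers at 0 or most abundant. Alternatives were RLE and upper-quartile scaling, no filter or a minimum of 10 counts per library, DESeq2 1.42.0, limma voom, a replicate block, leaving out each library or WT libraries 2 and 3, an adjusted p under 0.1, Spearman's rho and transcript length. The fits were tested on simulated data with known changes.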

Additional observations from a re-analysis of the deposited data

Results flagged for a closer look

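Among 54 groups of 4 libraries tested, 2 had a library far from the other 3 by the Dixon ratio (gap over range), where chance gives about 1 in 20. WT library 1 had 1.28 CPM of Egf, and the other WT libraries had 0.852 to 0.917 CPM (ratio 0.849). Gsdmd-/- library 1 had 1.90 CPM of Gpr15, one of the genes most like Nrg1 within genotypes, and the other Gsdmd-/- libraries had 2.22 to 2.26 CPM (ratio 0.902).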

How the results depend on the processing

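The log2 fold change of Nrg1 was between -1.28 and -1.11 over 16 alternatives, the same range as when each library was left out. Over the same alternatives Hbegf was between -0.12 and -0.02, Nrg4 between 0.06 and 0.19, Erbb3 between -0.42 and -0.29 and Egfr between -0.87 and -0.06. Egfr (-0.06) and the difference in Erbb2 (-4.37e-05 CPM) moved by more than the spread between libraries only without WT libraries 2 and 3.

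Pathway genes called lower at the adjusted p were 0 in the reported fit and 1 with DESeq2, without WT libraries 2 and 3 and at an adjusted p under 0.1. Those at the cutoff on the unadjusted p and higher were 0, against 1 with limma voom and 1 with the replicate block, and 0 to 2 when each library was left out (2 without WT library 1, 1 without WT library 4). Those lower were 2, against 1 with no filter, 1 with limma voom and 1 without WT libraries 2 and 3, and 1 to 3 when each library was left out (1 without WT library 2 or 3 or Gsdmd-/- library 1, 2 or 3). With Spearman's rho, 0 of the 5 genes most like Nrg1 were shared, across the 8 libraries and within genotypes alike.

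The replicate numbers did not pair the samples. Deviations of same-numbered libraries had correlations of 0.03, 0.18, 0.04 and -0.20, and the libraries share only a number. With the block, the log2 fold change of Nrg1 was -1.18 (SE 0.137).

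At this depth, members with a few reads per library (Areg, Tgfa, Ereg) could not be compared between genotypes, and Erbb2 rests on 2 to 25 reads.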
